A study of Drosophila melanogaster with 5 samples.

Results

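Testes 16 h after a pulse of Bam were compared with testes that had received no pulse, at a time before spermatocytes appear in this system. The comparison covered the genes with at least 10 CPM (normalized counts per 1000000) in 1 or both of the 16 h PHS and no HS libraries, which were 6669 of the 14819 genes of the table. PHS means post heat shock. Of the 6669 genes, 6450 reached 10 CPM in both libraries, and the other 8150 genes of the table were under 10 CPM in both.

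PolyA RNA was sequenced from whole testes with seminal vesicles of Drosophila melanogaster males carrying hs-Bam, in which the heat shock promoter drives bam, in the bam[1]/bam[86] mutant background. The 16 h PHS males were heat-shocked as mid to late pupae for 30 min at 37 °C and returned to 25 °C for 16 h, and the no HS males had the same genotype without the heat shock. The 8, 24 and 32 h PHS libraries of the same course are used below only to follow the genes over time. Each library pooled about 100 pairs of testes, and there was 1 library per time. The promoter is not restricted to germ cells, and the transgene, the bam alleles and the dissected tissue are shared by both groups. Heat-shocked males without hs-Bam were not analysed here, so the effects of Bam, of the heat shock itself and of the added hours of pupal age cannot be told apart in these values.

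In the Drosophila testis, germ line stem cells give rise to spermatogonia, which divide a fixed number of times before they enter premeiotic S phase and become spermatocytes. Bam, which acts with its RNA-binding partner Bgcn, is required for that switch, and without it spermatogonia keep dividing. How is an RNA-binding protein of the STAR family found in the stem cells and early spermatogonia. The protein is also found in the somatic cyst cells around the germ cells and in the testis sheath. BigH1 is a linker histone of the early germ line and early embryo.

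The 16 h PHS library held 21461541 reads and the no HS library 10356663 reads, so 1 CPM stood for 21.1 reads at 16 h PHS and 10.3 reads in no HS, and a count of 0 allowed a level of up to 0.142 CPM and 0.292 CPM (3 reads per library). Each change below is the difference of log2(CPM + 1), 16 h PHS minus no HS, which understates the change of low genes. Intervals are 95% Clopper-Pearson intervals of the log2 ratio of the CPM and cover counting error only. With 1 library per group no spread between replicates is known, so no gene was tested and a gene was called at a change of more than 2-fold. RNA of bam itself, which includes transcripts of both the transgene and the mutant alleles, was at 90.4 CPM at 16 h PHS, against 64.7 CPM in no HS (change 0.48, interval 0.35 to 0.61). Over the course bam stood at 64.7, 128, 90.4, 74.2 and 60.5 CPM in no HS and at 8, 16, 24 and 32 h PHS, so it was highest at 8 h PHS.

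Few genes differed by much at 16 h PHS, and more of them were lower than higher. The largest decreases were those of Drep2, BigH1 and ovo. Of the 6669 genes, 37 were lower by more than 2-fold (0.555%) and 10 were higher (0.15%). The median change was 0.00, the quartiles were -0.14 and 0.14, and 99.3% of the genes lay within 2-fold. At a threshold of 1.5-fold 176 genes were lower (2.64%) and 63 were higher (0.945%), and at 1.2-fold 816 were lower (12.2%) and 660 were higher (9.9%). All 37 lower genes were protein coding, whereas only Ant2 among the 10 higher genes was a protein-coding gene of the nuclear genome. For 21 of the 37 lower genes and 8 of the 10 higher genes the whole counting interval lay beyond 2-fold. Just past the line on the lower side were RhoGAP100F (-1.03) and CG7208 (-1.01), and just inside it were how (-0.998) and Oct-TyrR (-0.98).

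**Figure D1:**
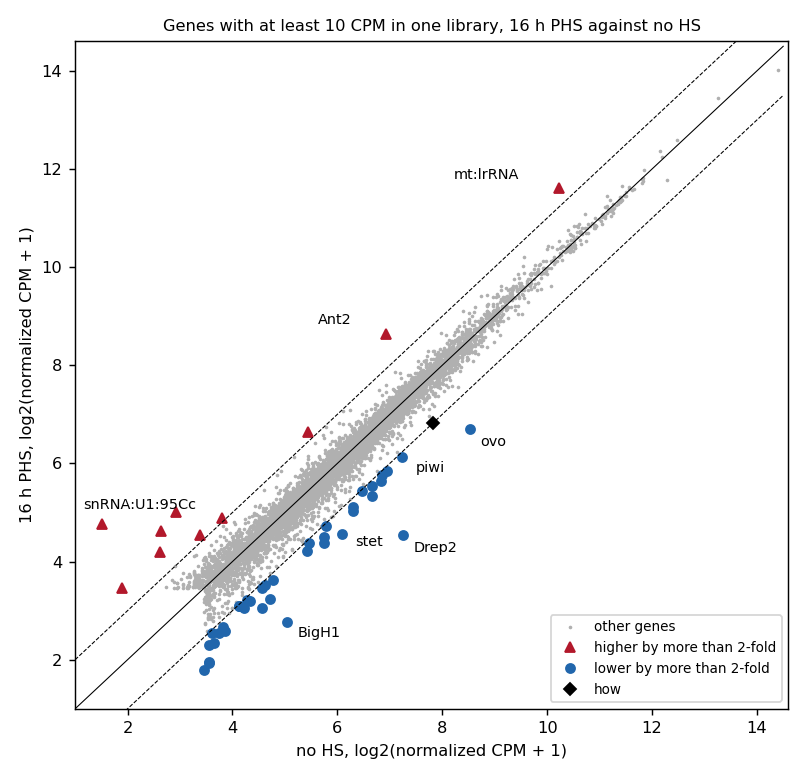
Level of each of the 6669 genes at 16 h PHS (vertical axis) against no HS (horizontal axis), both as log2(normalized CPM + 1), 1 library each. The solid line marks equal levels and the dashed lines a 2-fold difference; the 37 circles lie under the lower dashed line, the 10 triangles over the upper one, and how (diamond) sits on the lower line.

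The largest decrease was that of Drep2, a protein of the DFF family known from synapses, whose gene lies at 2R:9291856-9302821 (FBgn0028408). Drep2 had 22.4 CPM at 16 h PHS, against 151 CPM in no HS, a change of -2.69 (interval -2.90 to -2.60) that left 14.9% of the no HS level. In the order of time it stood at 151, 72.3, 22.4, 15 and 22 CPM in no HS and at 8, 16, 24 and 32 h PHS. The decrease was thus present at 8 h PHS and most of the remainder was added between 8 and 16 h PHS.

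BigH1 (FBgn0038252, 3R:14663450-14664822) came next, with 5.79 CPM at 16 h PHS, against 31.7 CPM in no HS (change -2.27, interval -2.77 to -2.15). These levels rested on 122 reads at 16 h PHS and 326 reads in no HS. It was at 19.9 CPM at 8 h PHS, 4.62 CPM at 24 h PHS and 12.3 CPM at 32 h PHS, so it was lowest at 24 h PHS. The other 6 histone variant genes and linker histones of its list were all below 0 but inside 1.5-fold, from His4r, a replacement histone H4 (528 CPM at 16 h PHS, against 694 CPM in no HS), to His3.3B (924 CPM at 16 h PHS, against 941 CPM in no HS). The median of the 7 was -0.28.

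The gene how (FBgn0264491, 3R:22042191-22079321) had 113 CPM at 16 h PHS, against 226 CPM in no HS (change -0.998, interval -1.09 to -0.92). With the pseudocount of 1 CPM this placed it just inside 2-fold. It was just past 2-fold with a pseudocount of 0.1 CPM (-1.004) or with each library rescaled to the same total (-1.01). With the libraries scaled to one upper quartile it was inside (-0.96), so its side of the line depended on the setting. It stood at 226, 106, 113, 122 and 134 CPM in no HS and at 8, 16, 24 and 32 h PHS. Its whole decrease was therefore present at 8 h PHS, and against the averaged no HS and 8 h PHS levels the change was -0.55. Drep2 and BigH1 differed from how in that both went on to lower levels after 8 h PHS. These are libraries of whole testes, and the part of the how RNA that came from somatic cells was not tested.

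Transcripts of early germ cells were lower, but not all of them. Of 21 genes of germ line stem cells and spermatogonia, 6 were lower by more than 2-fold (beside 0.555% of all genes), 8 by more than 1.5-fold (beside 2.64%) and 1 was higher by more than 1.5-fold (beside 0.945%), with a median of -0.37 beside 0.00 over all genes. The median was -0.23 against the averaged no HS and 8 h PHS levels. The 6 were BigH1, ovo, stet, Pxt, piwi and otu. The list was drawn up with earlier results of these samples known, so its direction is no independent evidence.

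The ovo gene, which encodes a zinc finger transcription factor of the germ line, had 103 CPM at 16 h PHS, against 367 CPM in no HS (change -1.83, interval -1.91 to -1.76). It was at 154 CPM at 8 h PHS, and at 99.7 and 145 CPM at 24 and 32 h PHS. The otu gene encodes a deubiquitinase needed in the female germ line and is a known target of Ovo, and it had 25.3 CPM at 16 h PHS, against 53.7 CPM in no HS (change -1.06). Both were thus lower at 16 h PHS, ovo by the larger amount.

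The stet gene encodes a rhomboid protease that germ cells use to release EGF ligands, which signal to the somatic cyst cells around them. It had 22.6 CPM at 16 h PHS, against 66.9 CPM in no HS (change -1.53, interval -1.74 to -1.40), and was at 12.5 and 12.6 CPM at 24 and 32 h PHS. None of the other 13 genes of EGFR signalling was past 1.5-fold. The ligand gene spi had 92.5 CPM at 16 h PHS, against 108 CPM in no HS (-0.22), the receptor gene Egfr had 21.7 CPM at 16 h PHS, against 20.3 CPM in no HS (0.10), and the feedback inhibitor gene aos had 30.0 CPM at 16 h PHS, against 20.2 CPM in no HS (0.55). The median of the 14 genes was -0.02, so stet was the 1 gene of its pathway past 1.5-fold.

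Pxt, which encodes a peroxidase related to cyclooxygenases that is needed in follicle development, had 48.9 CPM at 16 h PHS, against 112 CPM in no HS (change -1.19, interval -1.32 to -1.08). Its level at 8 h PHS was also 112 CPM, and at 24 and 32 h PHS it was 23.5 and 16.2 CPM. Here the decrease lay wholly after 8 h PHS, unlike that of how.

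Among the partners of Bam, bgcn had 187 CPM at 16 h PHS, against 314 CPM in no HS (-0.74), and tut, which encodes an RNA-binding protein that acts with Bam and Bgcn, had 20.7 CPM at 16 h PHS, against 13.6 CPM in no HS (0.57). The stem cell regulator nanos had 333 CPM at 16 h PHS, against 431 CPM in no HS (-0.37). The germ cell genes vas (300 CPM at 16 h PHS, against 281 CPM in no HS) and aub (320 CPM at 16 h PHS, against 318 CPM in no HS) differed by less than 0.10, so the list did not move as one. The 1 gene of the list past 1.5-fold on the higher side was esg, a Snail family transcription factor gene, with 21.7 CPM at 16 h PHS, against 13.2 CPM in no HS (0.67). In a whole testis fewer cells of a type and less RNA per cell cannot be told apart.

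**Figure D2:**
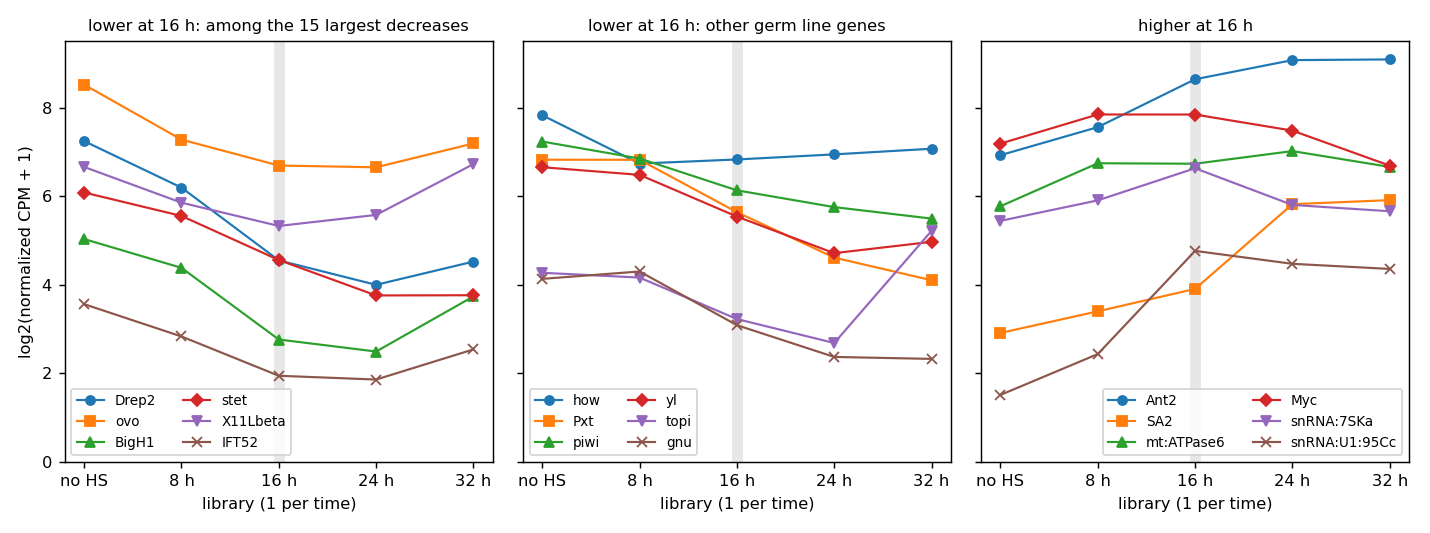
Levels of 18 genes as log2(normalized CPM + 1) in the 5 libraries of the course, in the order of time; the grey band marks 16 h PHS and each point is 1 library. The left and middle panels show genes lower at 16 h PHS than in no HS (how at 2-fold, topi highest at 32 h PHS), and the right panel genes that were higher, of which Ant2, SA2 and mt:ATPase6 were higher still at 24 h PHS.

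Further transcripts known from the ovary and egg were among the lower genes. Besides BigH1, ovo, Pxt and otu, these were alphaTub67C, the maternal alpha-tubulin (7.36 CPM at 16 h PHS, against 17.6 CPM in no HS), exu, needed to localize bicoid RNA in the oocyte (11.3 CPM at 16 h PHS, against 26.2 CPM in no HS), yl, the yolk protein receptor (45.6 CPM at 16 h PHS, against 99.9 CPM in no HS), and gnu, an activating subunit of the Pan gu kinase of the egg (7.5 CPM at 16 h PHS, against 16.6 CPM in no HS). Their changes lay between -1.16 for alphaTub67C and -1.05 for gnu. A list of 35 such genes was put together after these values were seen, and 28 of them reached 10 CPM in 1 or both libraries. Of these 28 genes, 8 were lower by more than 2-fold (beside 0.555% of all genes) and 12 by more than 1.5-fold (beside 2.64%). None was higher by more than 1.5-fold (beside 0.945%), and the median was -0.37. The list was made with these values known, so its excess of lower genes is no independent evidence. BigH1, alphaTub67C and gnu were among those that reached 10 CPM in no HS only, and over the listed genes with 10 CPM in both libraries the median was -0.20, as it was over those with a mean of 30 CPM. Also lower, and named after their values were seen, were the vitelline membrane genes fs(1)N (19.7 CPM at 16 h PHS, against 39.7 CPM in no HS) and fs(1)M3 (9.87 CPM at 16 h PHS, against 18.9 CPM in no HS), and png, the kinase partner of gnu (11.4 CPM at 16 h PHS, against 19.9 CPM in no HS). Not all oogenesis genes shared this: stau was at 248 CPM at 16 h PHS, against 222 CPM in no HS, and egl at 59.2 CPM at 16 h PHS, against 45.5 CPM in no HS.

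The piRNA pathway, which silences transposons in the germ line, held 1 gene past 2-fold. This was piwi, which encodes the nuclear Argonaute protein of the pathway, with 69.2 CPM at 16 h PHS, against 150 CPM in no HS (change -1.10, interval -1.22 to -1.01). The helicase gene spn-E (124 CPM at 16 h PHS, against 213 CPM in no HS) and the chromodomain gene rhi (38.2 CPM at 16 h PHS, against 60.7 CPM in no HS) were past 1.5-fold, and AGO3 (51.3 CPM at 16 h PHS, against 41.9 CPM in no HS) and tud (480 CPM at 16 h PHS, against 411 CPM in no HS) were higher. Over the 23 genes 14 were below 0 (beside 49.8% of all genes) and 9 above, with a median of -0.24. The decrease was thus shared by some members of the pathway and not by others.

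Some genes of intraflagellar transport, in which a protein particle moves along cilia, were also lower. They were listed after their values were seen, so the share of lower genes in this list is no independent evidence. IFT52 had 2.85 CPM at 16 h PHS, against 10.8 CPM in no HS (change -1.62, interval -2.40 to -1.46), and Oseg2 had 33.7 CPM at 16 h PHS, against 77.6 CPM in no HS (change -1.18). Oseg4 (4.98 CPM at 16 h PHS, against 10.4 CPM in no HS) and Oseg5 (22.2 CPM at 16 h PHS, against 35.3 CPM in no HS) were past 1.5-fold. The kinesin-2 genes that drive the particle, Klp64D, Klp68D and Kap3, lay between -0.06 and 0.07, so the motor genes did not share the decrease. Of the 23 genes listed 11 reached 10 CPM, IFT52 and Oseg4 in no HS only; 2 of the 11 were lower by more than 2-fold and 4 by more than 1.5-fold (beside 0.555% and 2.64% of all genes), and their median was -0.39. The median was -0.03 over the list without a filter, -0.23 with 10 CPM in both libraries and -0.15 against the averaged no HS and 8 h PHS levels, so it depended on the filter and the baseline.

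Other genes among the 15 largest decreases had 10.0 to 100.3 CPM in no HS. Mos, which encodes the kinase that drives MAP kinase in oocytes, had 3.94 CPM at 16 h PHS, against 10.8 CPM in no HS (-1.26). X11Lbeta, which encodes an adaptor protein of the Mint family, had 39.2 CPM at 16 h PHS, against 100.3 CPM in no HS (-1.33), and was back at 105 CPM at 32 h PHS. Syn1, a syntrophin gene, had 8.49 CPM at 16 h PHS, against 25.3 CPM in no HS (-1.47), and 13.9% of its exonic length overlaps other genes. The remaining ones were CG6220, CG43347, CG42404, CG4860, CG15056, CG17801 and superdeath, with changes between -1.67 for CG6220 and -1.27 for superdeath. Of these CG6220, CG43347 and CG15056 were above their no HS level at 32 h PHS, with 20.9, 43.7 and 38.3 CPM. CG4860 shares 20.7% of its exonic length with another gene. Mos, Syn1, CG6220, CG43347, CG42404, CG15056 and CG17801 reached 10 CPM in no HS only. The genes past 2-fold that are not named elsewhere were Oxp, CG13148, CG14036, Mov10, frm, CG7724, chn, Sodh2, CG43689 and Tusp, with changes between -1.26 for Oxp and -1.06 for Tusp. Among them chn, a zinc finger transcription factor gene, had the highest level, with 56.3 CPM at 16 h PHS, against 122 CPM in no HS. Sodh2 shares 60.8% of its exonic length with other genes and Mov10 shares 16.6%, so their values are uncertain. CG13148, Mov10, frm, CG7724 and Tusp reached 10 CPM in no HS only.

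Spermatocyte genes were not higher at 16 h PHS. Of 18 genes expressed in spermatocytes only 9 reached 10 CPM; 8 of these were below 0 (beside 49.8% of all genes) and the highest change was 0.00 (mia), with a median of -0.35. Of the 9, topi reached 10 CPM in no HS only, and without the filter the median of the list was -0.10. The largest decreases were those of topi, a subunit gene of the testis-specific meiotic arrest complex tMAC (8.35 CPM at 16 h PHS, against 18.3 CPM in no HS, change -1.05), and tomb, another subunit gene of that complex (16.1 CPM at 16 h PHS, against 30.4 CPM in no HS, -0.88). The time course of topi ran 18.3, 16.9, 8.35, 5.43 and 36.2 CPM in no HS and at 8, 16, 24 and 32 h PHS, and that of tomb 30.4, 24.3, 16.1, 19.1 and 52.9 CPM. Both were thus below no HS at 16 h PHS and above it at 32 h PHS. The spermatocyte regulator genes kmg (3.56 CPM at 16 h PHS, against 2.63 CPM in no HS) and Rbp4 (4.94 CPM at 16 h PHS, against 4.19 CPM in no HS) did not reach 10 CPM, and comr was at 0 in both libraries.

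One meiotic gene went the other way. SA2 encodes the stromalin that keeps homologous chromosomes paired in male meiosis, and it had 14 CPM at 16 h PHS, against 6.52 CPM in no HS (change 0.995, just inside 2-fold, interval 0.71 to 1.51). Of the 2 libraries compared, SA2 reached 10 CPM at 16 h PHS only. It stood at 6.52, 9.56, 14, 55.5 and 59.2 CPM in no HS and at 8, 16, 24 and 32 h PHS. It thus increased at each step. By contrast cona, which encodes a protein of the synaptonemal complex, had 31.7 CPM at 16 h PHS, against 60.4 CPM in no HS (-0.91). The other genes of meiotic recombination and cohesion lay between -0.43 (sunn) and 0.30 (vtd), and the median of the 21 was -0.18, or -0.08 against the averaged no HS and 8 h PHS levels.

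DNA replication genes were lower as a group, each by a small amount. Of 32 genes, 31 were below 0 (beside 49.8% of all genes), 22 were lower by more than 1.2-fold (beside 12.2%), none was higher by that much, and none passed 2-fold, with a median of -0.30. The ribonucleotide reductase subunit gene RnrS had 176 CPM at 16 h PHS, against 262 CPM in no HS (-0.57), PCNA, the sliding clamp gene, had 357 CPM at 16 h PHS, against 504 CPM in no HS (-0.50), and Orc6, of the origin recognition complex, had 21.0 CPM at 16 h PHS, against 32.1 CPM in no HS (-0.59). The exception was geminin, an inhibitor of origin licensing, with 284 CPM at 16 h PHS, against 280 CPM in no HS. The medians of the 32 genes were 153, 161, 126, 76.3 and 64.2 CPM in no HS and at 8, 16, 24 and 32 h PHS, so the decrease began after 8 h PHS and was larger later. Mitosis genes differed less: 21 of 31 were below 0 (beside 49.8% of all genes) and 9 were lower by more than 1.2-fold (beside 12.2%). Their median was -0.11, or -0.07 with the libraries scaled to one upper quartile. Aurora A kinase (aurA, 57.8 CPM at 16 h PHS, against 82.4 CPM in no HS) and CycB (162 CPM at 16 h PHS, against 199 CPM in no HS) were lower, and CycA (324 CPM at 16 h PHS, against 277 CPM in no HS) was higher.

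Ribosome biogenesis genes were higher. Of 19 genes, 16 were above 0 (beside 50.2% of all genes) and 7 were higher by more than 1.2-fold (beside 9.9%), with a median of 0.23, or 0.08 against the averaged no HS and 8 h PHS levels. Myc, whose protein promotes growth and ribosome synthesis, had 229 CPM at 16 h PHS, against 145 CPM in no HS (0.66), and Tif-IA, an RNA polymerase I initiation factor gene, had 31.7 CPM at 16 h PHS, against 23 CPM in no HS (0.45). Myc was at 229 CPM already at 8 h PHS, and at 178 and 102 CPM at 24 and 32 h PHS, so that it was below its no HS level at 32 h PHS. The 83 cytoplasmic ribosomal protein genes had a median of -0.02 and none was past 1.5-fold.

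Proteasome genes that reached 10 CPM, 33 of the 46 in the table, were lower without exception but by little. All 33 were below 0 (beside 49.8% of all genes) and 8 were lower by more than 1.2-fold (beside 12.2%). Lowest was Prosbeta3 (134 CPM at 16 h PHS, against 171 CPM in no HS, -0.36). The median of the 33 was -0.21, or -0.15 once the median of each gene's exonic length class was subtracted. At 24 and 32 h PHS their median level was 302 CPM at each time, above the 254 CPM of no HS, whereas at 16 h PHS it was 237 CPM. The decrease was thus not seen at the later times.

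**Figure D3:**
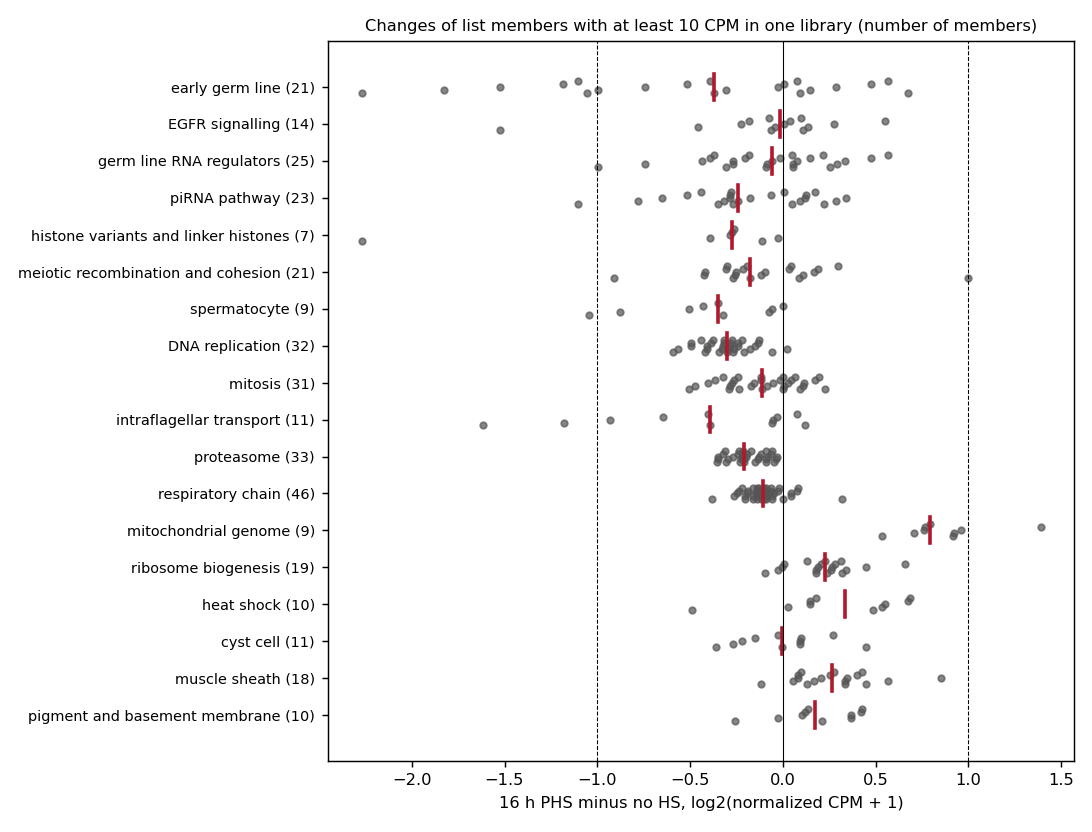
Change of each gene with at least 10 CPM in one library, 16 h PHS minus no HS in log2(normalized CPM + 1), in 18 gene lists; points are genes, red bars are list medians and the number of genes stands in brackets. Decreases past 2-fold (left dashed line) lie in the early germ line, histone, piRNA, EGFR, spermatocyte and intraflagellar transport lists, while the mitochondrial genome lies wholly above 0.

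The largest increase of a nuclear protein-coding gene was that of Ant2, which encodes 1 of the ADP/ATP carriers of the inner mitochondrial membrane (FBgn0025111, X:10778954-10786907). Ant2 had 399 CPM at 16 h PHS, against 121 CPM in no HS (change 1.71, interval 1.64 to 1.81). It stood at 121, 188, 399, 539 and 545 CPM in no HS and at 8, 16, 24 and 32 h PHS. Its neighbour sesB, the other carrier gene, had 417 CPM at 16 h PHS, against 524 CPM in no HS (-0.33), and stood at 524, 486, 417, 395 and 369 CPM over the course. At 16 h PHS the levels of the 2 genes were thus close to each other, while sesB was the higher of them in no HS. Ant2 shares 9.05% of its exonic bases with sesB and CG15211, so a part of its reads may be uncertain.

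RNA from the mitochondrial genome was higher throughout. The large mitochondrial rRNA, mt:lrRNA, had 3112 CPM at 16 h PHS, against 1188 CPM in no HS (1.39). All 13 mitochondrial protein-coding genes were above 0, and the 8 that reached 10 CPM had changes between 0.53 (mt:CoIII) and 0.96 (mt:ATPase6) with a median of 0.78. For mt:ATPase6 this meant 106 CPM at 16 h PHS, against 53.7 CPM in no HS, and for the cytochrome oxidase subunit gene mt:CoI it meant 549 CPM at 16 h PHS, against 336 CPM in no HS. The nuclear genes of the respiratory chain did not share this, since 41 of 46 were below 0 (beside 49.8% of all genes) and their median was -0.11. They are short, with a median exonic length of 849 bp, and their median was -0.05 once the median of each gene's length class was subtracted. The median level of the 8 genes was 59.1, 112, 109, 138 and 105 CPM in no HS and at 8, 16, 24 and 32 h PHS, so that no HS was the library that stood apart.

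The other 8 genes past 2-fold on the higher side were small or structural RNAs. They were the spliceosomal RNA genes snRNA:U1:95Cc (26.2 CPM at 16 h PHS, against 1.85 CPM in no HS, 3.25) and snRNA:U11, snRNA:7SKa (98.2 CPM at 16 h PHS, against 42.5 CPM in no HS, 1.19), RNaseMRP:RNA, snoRNA:Psi18S-1820 and the rRNA pseudogenes 28SrRNA-Psi:CR41609, 28SrRNA-Psi:CR45859 and 18SrRNA-Psi:CR41602. Of 50 snRNA and snoRNA genes with at least 10 reads over both libraries 42 were above 0, beside 50.2% of the 6669 genes. The 50 were taken at 10 reads and the 6669 at 10 CPM, so these shares rest on unlike filters. The median of the 50 was 0.61. All snRNA and snoRNA genes summed to 311 CPM at 16 h PHS and 125 CPM in no HS, with 182, 228 and 179 CPM at 8, 24 and 32 h PHS. Such RNAs are mostly without a polyA tail. The rRNA pseudogenes resemble rRNA and each other, U1 RNA is encoded by near-identical genes, and their values are uncertain.

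Among genes with at least 100 CPM in one library, 2402 in number, the largest increases after Ant2, mt:lrRNA and mt:ATPase6 were those of Dso2, an immune peptide gene (132 CPM at 16 h PHS, against 68.3 CPM in no HS, 0.94), bt, which encodes the giant muscle protein projectin (135 CPM at 16 h PHS, against 74.5 CPM in no HS, 0.85), and mt:CoII (112 CPM at 16 h PHS, against 64.4 CPM in no HS, 0.79). The bt gene is part of the muscle sheath list, the marker list of the muscle that wraps the testis. Of its 18 genes 17 were above 0 (beside 50.2% of all genes) and 9 were higher by more than 1.2-fold (beside 9.9%), with a median of 0.26, and they included sls (86.9 CPM at 16 h PHS, against 58.4 CPM in no HS) and Mhc, the muscle myosin heavy chain (490 CPM at 16 h PHS, against 365 CPM in no HS). The 20 genes on the list summed to 2616 CPM at 16 h PHS and 2122 CPM in no HS, and of its defining genes only Act88F was at 0 in no HS (0.38 CPM at 16 h PHS). Basement membrane genes were also mostly higher, 8 of 10 (beside 50.2% of all genes) with a median of 0.17. They summed to 2784 CPM at 16 h PHS and 2315 CPM in no HS. These sheath levels were thus higher beside the lower germ line genes, and their part in those changes was not tested.

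Somatic cyst cells, which enclose the germ cells, showed no common direction. Of 11 cyst cell genes 6 were below 0 and 5 above, the median was -0.01, and all lay inside 1.5-fold, from magu (16.1 CPM at 16 h PHS, against 20.9 CPM in no HS, -0.36) to Six4 (13.5 CPM at 16 h PHS, against 9.64 CPM in no HS, 0.45). Of the 16 accessory gland genes in the table none reached 10 CPM, 8 were at 0 at 16 h PHS and 9 in no HS, and they summed to 1.52 CPM at 16 h PHS and 1.36 CPM in no HS. Of the 14 midgut genes only the amylase genes Amy-p (53.3 CPM at 16 h PHS, against 114 CPM in no HS, -1.09) and Amy-d (29.6 CPM at 16 h PHS, against 59.3 CPM in no HS, -0.98) reached 10 CPM. The 2 are near-identical copies and their separate values are uncertain.

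Heat shock genes were above no HS but were not at their highest at 16 h PHS. Of 10 genes 9 were above 0 (beside 50.2% of all genes), with a median of 0.33. The median was 0.18 over those with 10 CPM in both libraries and 0.16 over those with a mean of 30 CPM. The small heat shock protein gene Hsp23 had 682 CPM at 16 h PHS, against 424 CPM in no HS (0.68). Hsp68, an Hsp70 family gene, had 193 CPM at 16 h PHS, against 120.1 CPM in no HS (0.68), and the Hsp90 gene Hsp83 had 3524 CPM at 16 h PHS, against 4956 CPM in no HS (-0.49). At 8 h PHS the levels of Hsp23 and Hsp68 were 2229 and 361 CPM, and against the averaged no HS and 8 h PHS levels the median of the list was below 0, at -0.18. The genes of the CCR4-NOT deadenylase, which Bam binds through its Caf40 subunit, had a median of 0.03 over 9 genes, none past 1.5-fold.

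Genes of chromosome 4 were higher as a set, a pattern noticed after the values were seen. This small chromosome held 46 of the 6669 genes, of which 43 were above 0 (93.5%, beside 49.9% of the genes elsewhere). Of the 46, 32 were higher by more than 1.2-fold (69.6%, beside 9.48% elsewhere) and none was lower by 1.2-fold. The median was 0.38, whereas the medians of 2L, 2R, 3L, 3R and X lay between -0.01 and 0.00. The genes ranged from ATPsynbeta (-0.10) to PlexA, an axon guidance receptor gene (111 CPM at 16 h PHS, against 68 CPM in no HS, 0.70), and bt (0.85). The ribosomal protein gene RpS3A, also on this chromosome, had 861 CPM at 16 h PHS, against 656 CPM in no HS (0.39). The median level of the 46 genes was 30.4, 39.6, 42.6, 52.6 and 40.3 CPM in no HS and at 8, 16, 24 and 32 h PHS, so each PHS library was above no HS. The comparison did not use the 8, 24 and 32 h PHS libraries. Between 24 and 8 h PHS 43 of the 46 were above 0 (93.5%, beside 49.1% elsewhere), with a median of 0.21. Between 32 and 8 h PHS 22 of 46 were above 0, near the share elsewhere (3129 of 6623), with a median of -0.01.

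**Figure D4:**
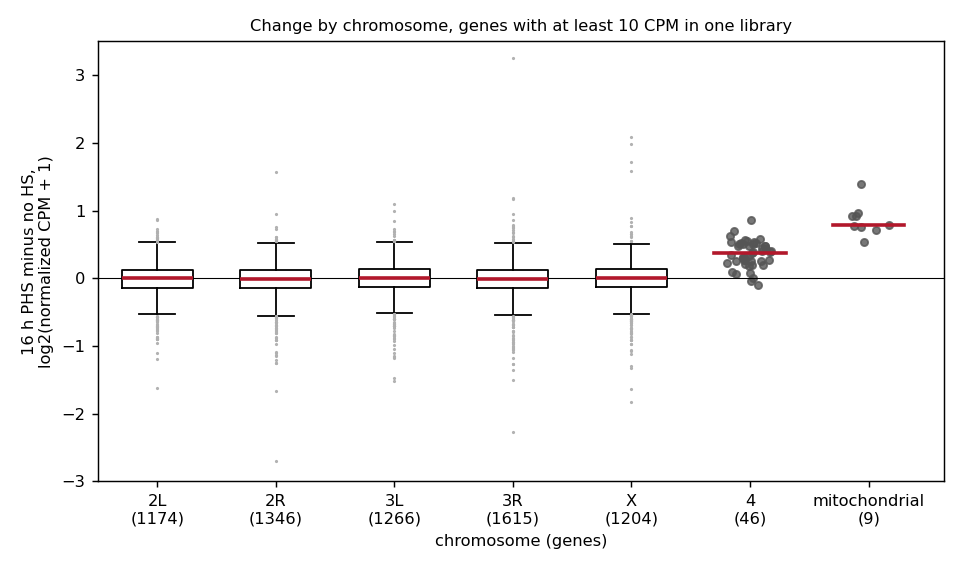
Change of each gene by chromosome, 16 h PHS minus no HS in log2(normalized CPM + 1), with the number of genes in brackets. Boxes show the quartiles with whiskers to 1.5 interquartile ranges and dots beyond, and for chromosome 4 and the mitochondrial genome each point is a gene; red bars are medians, at 0.38 for chromosome 4 and 0.79 for the mitochondrial genome.

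At 16 h PHS the change also moved with the exonic length of the gene. The 802 genes of up to 1000 bp had a median of -0.08, and the medians were -0.05 for the 2065 genes of 1000 to 2000 bp, 0.01 for 1394 genes of 2000 to 3000 bp, 0.04 for 1315 genes of 3000 to 5000 bp, 0.09 for 711 genes of 5000 to 8000 bp and 0.12 for the 374 longer genes. In the same classes the medians of 8 h PHS minus no HS lay between -0.02 and 0.04, those of 24 h PHS minus no HS between -0.01 and 0.02, and those of 32 h PHS minus no HS between -0.02 and 0.02, so the spread over the classes was widest at 16 h PHS. Chromosome 4 genes had a median exonic length of 4831 bp, beside 2284 bp over all genes. In the class of 5000 to 8000 bp the 16 genes of chromosome 4 had a median of 0.48, against 0.09 for the genes elsewhere. When the median of its length class was subtracted from each gene, 42 genes were lower and 13 higher by more than 2-fold, and how was at -1.09.

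The genes called at 16 h PHS were then followed in the 8, 24 and 32 h PHS libraries, which were used in neither side of the comparison. Between 24 and 8 h PHS 34 of the 37 lower genes were below 0, or 91.9%, beside 50.6% of all 6669 genes. Lower by more than 2-fold were 26, or 70.3%, beside 1.26%, and the median of the 37 was -1.32. Between 32 and 8 h PHS 30 were below 0, or 81.1% beside 52.8%. In the same interval 20 were lower by more than 2-fold, or 54.1% beside 2.19%, with a median of -1.13 over the 37. In that interval 4 of the 37 were higher by more than 2-fold, beside 0.585% of all genes, namely topi (1.06), CG6220 (1.58), CG15056 (1.95) and CG43347 (2.79). The median of the 37 was 26.2, 20.5, 10.4, 8.65 and 14.7 CPM in no HS and at 8, 16, 24 and 32 h PHS. At 8 h PHS 36 of them were below no HS, beside 3187 of all 6669 genes. The decrease was past 2-fold for 3 of the 37, beside 14 of all genes. The call used no HS, and 18 of the 37 reached 10 CPM there only, so these counts against no HS are no independent evidence.

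Of the 10 higher genes, 6 reached 10 CPM at 16 h PHS only, so they entered the comparison through the library in which they were high. For the 10 genes the same differences had medians of 0.62 between 24 and 8 h PHS and 0.44 between 32 and 8 h PHS. Above 0 were 9 and 6 of them, beside 3292 and 3151 of all 6669 genes. Ant2 was at 1.51 and 1.53 in these differences and snRNA:U1:95Cc at 2.04 and 1.92, and these were the genes of the 10 past 2-fold in both, beside 0.165% and 0.585% of all genes. The snRNA:7SKa gene, at -0.10 and -0.25, did not keep its direction. The larger set higher by more than 1.5-fold held 63 genes. Of these 52 were above 0 between 24 and 8 h PHS and 37 between 32 and 8 h PHS. Below 0 were 17.5% and 41.3% of the 63, beside 50.6% and 52.8% of all genes.

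**Figure D5:**
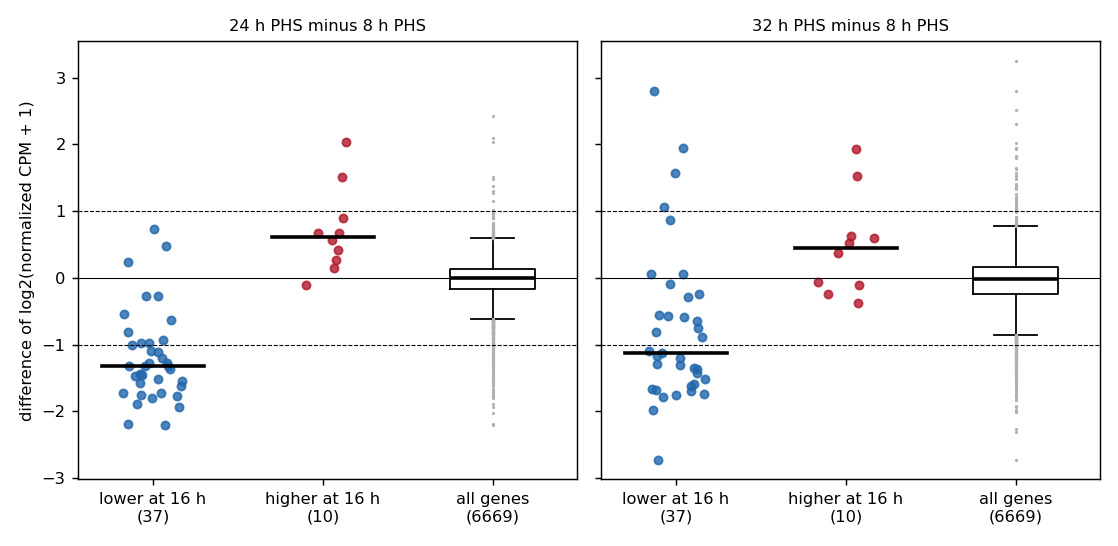
Difference of log2(normalized CPM + 1) between 24 and 8 h PHS (left) and between 32 and 8 h PHS (right) for the 37 genes lower and the 10 genes higher by more than 2-fold at 16 h PHS than in no HS, beside all 6669 genes. Points are genes, black bars are medians, boxes show the quartiles with whiskers to 1.5 interquartile ranges, and dashed lines mark 2-fold; most lower genes lie below 0, with medians of -1.32 and -1.13.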

How the data were processed

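The authors trimmed 100 bp paired reads with Trim Galore 0.4.3 (Phred 20), mapped the reads to BDGP6.46 using STAR 2.5.3, kept proper pairs with a mapping quality of at least 10 (SAMtools 1.4.1), counted them per gene with featureCounts of Subread 1.5.0 and normalized them by TMM with edgeR 3.34.0 under R 4.1.0. The strand setting was not given in the sources used here, so reads of genes that overlap on opposite strands may be mixed. The values deposited by the authors are log2 of normalized CPM + 1.

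CPM was recovered by undoing the log2 and subtracting 1, and 100% of the values then came out as whole reads within 0.1 read. The plan assumed CPM as the deposited unit; the measures were otherwise as planned. A count test was not run, since 1 library per group leaves no spread to estimate. Genes were kept at 10 CPM in one library, the change was the difference of log2(CPM + 1) with a pseudocount of 1, and the call was 2-fold. Named genes were how, BigH1 and bam, the 15 largest changes in each direction, the 6 largest among genes with at least 100 CPM, and list members; others were named after their values were seen, as stated beside them or here for Rbp4, kmg and sesB. The members and lists were chosen with earlier results of these data known. The further lists tried were ecdysone response (12 genes, median 0.08), JAK-STAT and niche (11, 0.02), BMP signalling (10, 0.14), germ line RNA regulators (25, -0.06), ejaculatory duct and bulb (4, 0.20), fat body (4, -0.07), blood cell (4, 0.20), glycolysis (13, -0.16), mitochondrial ribosomal proteins (70, -0.05), immune peptide (1, -0.33) and spermatid (1, -0.32), each with its genes of at least 10 CPM and their median change. Coordinates, exonic lengths and shared exons came from the BDGP6.54 annotation, in which 14797 of 14819 genes were found. The 2709 transposon features of the table were kept out of the comparison. Scripts used Python 3.11.15, numpy 2.4.6, pandas 2.3.3, scipy 1.17.1 and matplotlib 3.10.9 and were tested on simulated data. Alternatives covered the pseudocount, the scaling, the baseline, the filter and the fold; chosen after seeing the data were the 1.2-fold threshold, the restriction to nuclear protein-coding genes and the subtraction of the length class median.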

Additional observations from a re-analysis of the deposited data

Results flagged for a closer look

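The table also held 2709 transposon features, of which 6 reached 10 CPM in one of the libraries and none differed by more than 2-fold. Outside the comparison of genes, a signal higher at 16 h PHS than in no HS, with a counting interval above 0, was seen for 2 of them. A copy of the G element had 10.3 CPM at 16 h PHS, against 5.94 CPM in no HS (change 0.70), and a copy of the telomeric retrotransposon HeT-A had 18.1 CPM at 16 h PHS, against 13.6 CPM in no HS (0.39). The other HeT-A copies that reached 10 CPM were at -0.72 (interval -1.09 to -0.47) and -0.23, so copies of this element did not share a direction. The remaining features were copies of the element 3S18, at -0.78 (interval -1.09 to -0.56) and -0.30. The change of -0.78 was the largest of the 6, and the 6 features as a set had no common direction.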

How the results depend on the processing

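The count of 37 lower and 10 higher genes depended on the threshold and the filter more than on the scaling. At 1.5-fold it was 176 and 63, at 3-fold 6 and 4, and at 1.2-fold 816 and 660. Without a filter it was 72 and 36, with 10 CPM in both libraries 19 and 4, and with a mean of 30 CPM 16 and 3. A pseudocount of 5 CPM gave 20 lower genes, and averaged no HS and 8 h PHS levels as the baseline gave 20 and 5; nuclear protein-coding genes alone gave 37 and 1. The share of higher genes among those called was 21.3%, and 33.3% without a filter, 40% at 3-fold, 44.7% at 1.2-fold and 2.63% for nuclear protein-coding genes. BigH1 was at -1.77 with a pseudocount of 5 CPM and at -1.98 against the averaged no HS and 8 h PHS levels. The gene how was at -0.55 against that average and at -1.09 with the length class median subtracted. It crossed the 2-fold line with a pseudocount of 0.1 CPM (-1.004) or with each library rescaled to the same total (-1.01). Over 29 lists followed under the alternatives, 271 of 287 medians moved by no more than the counting error typical of the list's genes and 13 changed sign, in 8 lists, among them heat shock (-0.18 against that average). Of 259 values of 37 named genes 206 stayed inside their counting interval and 1 changed sign. The upper quartile scaling moved the median of all genes to 0.04. Depth limited the genes under 10 CPM, and with 1 library per group no replicate could be left out. No paired analysis was possible because each group had 1 library.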
